A study of Mus musculus with 24 samples.

Results

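Expression of 9 glycogen metabolism genes was described in the liver of 24 mice: Gbe1, Gys2, Pygl, Ugp2, Ppp1r3b, Ppp1r3c, Ppp1r3g, Gyg and Stbd1. All probes that carried exactly these gene names on the array were taken, which gave 9 of the 37074 names on the array and 14 of its 56605 probes, and all 14 had a row among the 32176 of the deposited log2 table. Gbe1 was chosen by its measured difference between HFepa and the reference, among the largest rises of that comparison, so its values in that comparison are given as a description, without a test. All 14 probes were well above background on 24 of 24 arrays.

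The mice were C57Bl6J males of the third generation of 2 lineages, with 1 array in 1 colour (Cy3) per mouse. The reference group (labelled STD_Cont, 9 mice) and HFoleic (labelled HFD_Cont, 8 mice) came from the lineage given the control fatty acid, an oil rich in oleic acid, while HFepa (labelled HFD_O3, 7 mice) came from the lineage given omega 3 fatty acids, a fish oil rich in eicosapentaenoic acid (EPA). The reference mice ate the low fat diet, and HFoleic and HFepa mice were challenged with the high fat, high sucrose diet, with liver taken from all during fasting. HFoleic against reference is therefore a comparison of diets within 1 lineage and HFepa against HFoleic a comparison of lineages on 1 diet, whereas HFepa against reference differs in diet and lineage at the same time, and no mice of the EPA lineage on the low fat diet were analysed here.

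Glycogen is the branched glucose polymer in which the liver stores glucose after a meal and from which it releases glucose during fasting. Ugp2 makes the activated sugar UDP-glucose, Gyg (glycogenin) primes the chain, Gys2 (the liver glycogen synthase) lengthens it and Gbe1 (the branching enzyme) adds its branch points. Ppp1r3b, Ppp1r3c and Ppp1r3g encode subunits that bring protein phosphatase 1 to glycogen, where it activates the synthase and inactivates the phosphorylase. Pygl (the liver phosphorylase) releases glucose units in phosphorylated form from the chain ends, and Stbd1 anchors glycogen to membranes.

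Gbe1 was measured by 3 probes at 2 places of the gene on chromosome 16 (build mm9, plus strand). The upstream probe, A_55_P2727654, covered positions 70361835 to 70361894. The first end probe, A_65_P10159, covered 70569433 to 70569492, and the second end probe, A_51_P273684, covered 70569840 to 70569899. The array design assigned both end probes to the transcript NM_028803, at offsets 2455 and 2862, and the upstream probe to another transcript, ENSMUST00000099628. The upstream probe lay 207598 bases before the first end probe and shared 0 transcript accessions with either of them, whereas the end probes lay 407 bases apart and shared 3 accessions. Whether these positions are exonic, intronic or in a UTR was not determined here. It was also not determined whether the upstream probe reports mature Gbe1 mRNA. The last 30 bases of each probe are shown because the results differ between the 2 places:
upstream probe: agttgttggagggagaaccaaaacaaaaaa
first end probe: ttagcaacgtctatttcaaagccatccaag
second end probe: atttcactcttctgaagacttgaagtggtc
The last 12 bases of the upstream probe held 10 A, against 5 and 2 in the first and second end probes.

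The levels below are log2 of quantile-normalized signal, each on the scale of its own probe. A difference is a difference of group means on that scale, with its standard error (SE) or 95% interval from limma, and a probe was called at an adjusted p (Benjamini-Hochberg over all 32176 rows) under 0.05. Background was not subtracted from these signals, which compresses the differences of dim probes. Detection was similar between arrays: 50.9 to 60.8% of probes were well above background on each array. Array pairs of a group correlated at r = 0.975 to 0.996. The number of spots marked as outliers differed between slide rows, as given below. The 6 hepatocyte markers (Alb, Ttr, Apoa1, Apob, Cps1, Hnf4a) had a summed level of 19.2 to 19.5 on every array. Single reference arrays stood apart in other markers. The skeletal muscle sum (3 of 5 genes with a row, none for Ckm and Acta1) ran from 7.67 to 10.47 in the reference, from 7.86 to 8.12 in HFoleic and from 7.90 to 8.19 in HFepa, and was highest in reference replicate 3. The adipocyte sum (4 of 4) ran from 8.57 to 10.79, 8.43 to 8.84 and 7.63 to 8.78 in the same order, highest in reference replicate 4. The stellate cell sum (4 of 4) ran from 10.36 to 12.13, 10.64 to 11.14 and 10.73 to 11.26, and the bile duct sum (4 of 4) from 8.34 to 10.12, 8.35 to 8.73 and 8.47 to 8.80, both highest in reference replicate 5. The Kupffer cell, sinusoidal endothelium, erythroid and exocrine pancreas sums overlapped between all groups. In HFoleic against reference, 1 marker each of hepatocytes, stellate cells and bile duct was called, and the part of these cell types in the results was not tested. The called member results are given with and without reference replicates 3, 4 and 5.

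Part of the glycogen list differed between the diets in the oleic lineage. In HFoleic against reference, 5 of the 14 member probes were called, 4 higher and 1 lower, on an array where 6.59% of all rows were called (3.69% higher and 2.9% lower). The risers were the 3 probes of Gbe1 and the probe of Ugp2, and the faller was the probe of Ppp1r3b. Gbe1 was chosen against the same reference arrays, so its 3 calls are not independent of that choice. The median difference of the 14 probes was 0.15, against -0.0006 over all rows, and the median size was 0.22 against 0.094. Without Gbe1, 2 of the other 11 probes were called, the median difference was 0.097 and the median size 0.19. Each of these 2 calls was lost when some single arrays were left out. The liver is a mixture of cells, so fewer cells of a type and less RNA per cell cannot be told apart.

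The probes named Gbe1 were higher in HFoleic at both places of the gene. At the second end probe the reference mice lay between 11.84 and 12.47 (median 12.17), the HFoleic mice between 12.43 and 12.92 (median 12.79) and the HFepa mice between 12.01 and 13.07 (median 12.48). HFoleic and reference overlapped by 1 HFoleic mouse, while HFepa mice were spread over the range of both groups and held the highest mouse of all 24. The HFoleic mean was higher by 0.52 (SE 0.12, adjusted p = 0.0113), or 1.44-fold.

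The first end probe gave the same order of groups. Its lowest, median and highest levels were 9.05, 9.34 and 9.70 in the reference, 9.38, 9.78 and 9.97 in HFoleic, and 9.23, 9.53 and 9.89 in HFepa. The groups overlapped, with 5 of 8 HFoleic mice above every reference mouse, and the HFoleic mean was higher by 0.41 (SE 0.099, adjusted p = 0.0133). Over the 24 arrays the end probes correlated with each other at r = 0.94 (Spearman rho = 0.94).

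At the upstream probe HFoleic lay further from the reference. Its HFepa values are those by which the gene was chosen, so their distance from the reference is a description only. The reference mice lay between 6.47 and 7.89 (median 7.54), the HFoleic mice between 8.01 and 8.96 (median 8.47) and the HFepa mice between 7.86 and 9.15 (median 8.58). All 8 HFoleic mice and 6 of 7 HFepa mice were above every reference mouse, and the lowest mouse was reference replicate 5. The HFoleic mean was higher by 0.97 (SE 0.19, adjusted p = 0.00388), or 1.96-fold. Without reference replicate 5 this difference was 0.85 (adjusted p = 0.00465), and without reference replicates 3 or 4, each left out alone, it was 0.98 and 1.01. Under the same leave-outs the end probes differed by 0.54 to 0.55 (second) and 0.41 to 0.45 (first), and stayed called. This comparison shares its 9 reference arrays with the comparison for which Gbe1 was chosen, and is therefore not independent of that choice.

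**Figure D1:**
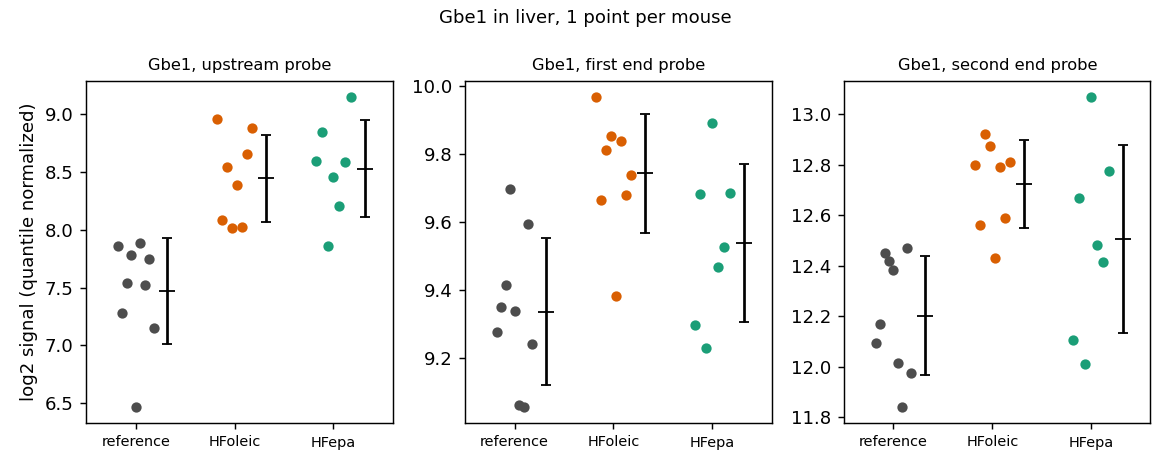
Levels of Gbe1 at its 3 probes (y axis, log2 quantile-normalized signal, each panel with its own scale) in reference, HFoleic and HFepa mice (x axis). Points are mice, and the horizontal dash and bar are the mean and SD. At the upstream probe all 8 HFoleic mice and 6 of 7 HFepa mice lie above every reference mouse, while at both end probes the HFepa mice spread over the range of the other groups. The HFepa values at the upstream probe chose the gene, so their place above the reference is not independent of that choice.

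The values for which Gbe1 was chosen were those of the upstream probe in HFepa, whose mean was 8.53 ± 0.42 (SD, n = 7) against 7.47 ± 0.45 (SD, n = 9) in the reference, a difference of 1.06. The end probes differed by 0.30 and 0.20 in the same comparison (second and first end probe). The mean of HFepa lay between those of HFoleic and reference at both end probes. At the upstream probe it was the highest, but that value chose the gene, and its distance from HFoleic was 0.085 (95% interval -0.34 to 0.51) and -0.019 without HFepa replicate 7, so the order of HFepa and HFoleic there is not settled. The difference of the upstream probe from the mean of the end probes, set against its reference mean, was higher by 0.51 in HFoleic (lowest -0.056, highest 0.90) and by 0.80 in HFepa (lowest 0.27, highest 1.22), while the reference mice themselves ran from -1.10 to 0.65. The 0.80 is built on the upstream values that chose the gene, and the 0.51 shares their reference arrays. The larger distances at the upstream probe are therefore not independent of that choice. The upstream probe correlated with the first and second end probes at r = 0.55 in both cases (rho = 0.57 and 0.62) over the 24 arrays, as a description.

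The 24 arrays lay on 3 slides of 8, in 2 rows per slide, and each slide held mice of all groups. On slides 1 to 3 the HFoleic mean exceeded the reference mean by 1.44, 0.999 and 0.54 at the upstream Gbe1 probe, and by 0.63, 0.59 and 0.31 at the second end probe. In slide rows 1 and 2 the excess was 0.71 and 1.26 at the upstream probe and 0.46 and 0.57 at the second end probe. The difference between HFepa and reference on slides 1 to 3 was 0.083, 0.39 and 0.48 at the second end probe. At the first end probe it was 0.13, 0.29 and 0.22. By slide row, in contrast, it was seen mainly in row 2: it was 0.022 and 0.49 in rows 1 and 2 at the second end probe, and 0.014 and 0.34 at the first. At the upstream probe the row values were 0.77 and 1.32. Row 1 held 3 HFepa mice and row 2 held 4. The rows also differed in spots marked as outliers, with 134 to 191 per array in row 1 and 350 to 627 in row 2. The part of the slide row in these values was not tested.

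Among the other genes of glycogen synthesis, Ugp2 (A_55_P2021049, chromosome 11 from 21221975 to 21222034, minus strand) rose in HFoleic. Its lowest, median and highest levels were 12.37, 12.52 and 12.90 in the reference, 12.68, 12.96 and 13.21 in HFoleic, and 12.49, 12.65 and 13.25 in HFepa. All 8 HFoleic mice were above the reference mean and 6 of 8 above every reference mouse, while most HFepa mice lay within the reference range. The HFoleic mean was higher by 0.37 (SE 0.10, adjusted p = 0.0245), or 1.29-fold. It was higher on all 3 slides, by 0.33, 0.57 and 0.26, and lost the call without reference replicate 1 (0.35, adjusted p = 0.0526) or HFoleic replicate 8 (0.34, adjusted p = 0.0596). Without reference replicate 3, 4 or 5 it stayed called, at 0.37, 0.39 and 0.36. In HFepa against reference Ugp2 differed by 0.16 (adjusted p = 0.562), with -0.072 in slide row 1, 0.33 in row 2, and 0.074 without HFepa replicate 4.

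Neither the primer nor the synthase was called. Gys2 (A_55_P1992555, chromosome 6 from 142371157 to 142371216, minus strand) averaged 14.25 ± 0.090 (SD, n = 9) in reference mice, 14.18 ± 0.27 (SD, n = 8) in mice of HFoleic and 14.23 ± 0.20 (SD, n = 7) in those of HFepa. Its spread was wider on the high fat diet, where the lowest HFoleic mouse was at 13.66 and the lowest HFepa mouse at 13.82, against 14.12 in the reference; the difference in spread was not tested. The HFoleic difference was -0.063 (95% interval -0.26 to 0.13). The 2 Gyg probes (A_55_P1992910 and A_66_P102331, chromosome 3 from 20022033 to 20022092 and from 20022461 to 20022520, minus strand) differed by -0.026 and -0.050 in HFoleic and by -0.14 and -0.13 in HFepa, none of them called. The HFepa value of the first was -0.049 without reference replicate 5, -0.090 without HFepa replicate 6 and -0.24 without HFepa replicate 4.

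Of the 3 phosphatase targeting subunits 1 was called. Ppp1r3b (A_55_P1967133, chromosome 8 from 36451115 to 36451174, plus strand), a major subunit of liver, fell in HFoleic. Its lowest, median and highest levels were 14.15, 14.74 and 15.29 in the reference, 13.88, 14.30 and 14.42 in HFoleic, and 13.75, 14.31 and 14.83 in HFepa. The groups overlapped, but all 8 HFoleic mice were below the reference mean and 3 were below every reference mouse. The difference was -0.51 (SE 0.14, adjusted p = 0.0276), a ratio of 0.704, and was -0.71, -0.22 and -0.57 on slides 1 to 3. This call was lost without reference replicate 7 (-0.47, adjusted p = 0.0560), reference replicate 2 (-0.44, 0.0503), HFoleic replicate 4 (-0.46, 0.0596) or HFoleic replicate 6 (-0.46, 0.0574). Without reference replicate 3, 4 or 5 the call stayed, at -0.51, -0.50 and -0.49. In HFepa the difference from the reference was -0.41 (adjusted p = 0.207), with -0.71, 0.00037 and -0.60 on slides 1 to 3.

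Ppp1r3g (A_51_P155873, chromosome 13 from 36061999 to 36062058, plus strand) varied most among the members. Its levels ran from 7.89 to 10.81 (median 8.85) in the reference, from 6.06 to 10.11 (median 7.81) in HFoleic and from 7.24 to 9.51 (median 8.01) in HFepa. Both the lowest and the second highest of all 24 mice were HFoleic mice, all groups overlapped, and the SDs were 1.08, 1.17 and 0.86. The difference of HFoleic from the reference was the largest of the 14 probes in size, -1.08, but with an SE of 0.48 it was not called (adjusted p = 0.198). It was -0.84 without reference replicate 3. In HFepa it was -0.50 (95% interval -1.52 to 0.51), and -0.27 without reference replicate 3 or -0.30 without HFepa replicate 2. Ppp1r3c (A_52_P30451, chromosome 19 from 36806457 to 36806516, minus strand) had means of 11.78 ± 0.38 (SD, n = 9), 11.89 ± 0.51 (SD, n = 8) and 11.46 ± 0.58 (SD, n = 7) in reference, HFoleic and HFepa, with differences from the reference of 0.11 (adjusted p = 0.845) and -0.33 (adjusted p = 0.600). The first was -0.0021 without HFoleic replicate 4, and the second -0.15 without HFepa replicate 4.

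On the side of glycogen breakdown, Pygl (A_51_P452779, chromosome 12 from 71291855 to 71291914, minus strand) averaged 14.43 ± 0.17 (SD, n = 9) in reference mice, 14.62 ± 0.14 (SD, n = 8) in mice of HFoleic and 14.53 ± 0.10 (SD, n = 7) in HFepa. The HFoleic difference was 0.19 (95% interval 0.043 to 0.34) and was not called (adjusted p = 0.116), with 4 of 8 HFoleic mice above every reference mouse. Stbd1 was measured by 3 probes on chromosome 5 (plus strand), A_55_P1967231 from 93035508 to 93035567, A_52_P645855 from 93035133 to 93035192 and A_52_P290088 from 93033665 to 93033724. They differed from the reference by 0.23, 0.20 and 0.097 in HFoleic and by 0.24, 0.27 and 0.0050 in HFepa, in that order, and none was called. The first 2 of them had similar differences in both groups on the high fat diet, and the third smaller ones. The array design assigned the first 2 to the transcript NM_175096 and the third to another, AK021293. The third had no value for 1 HFoleic mouse, which the fit left out.

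**Figure D2:**
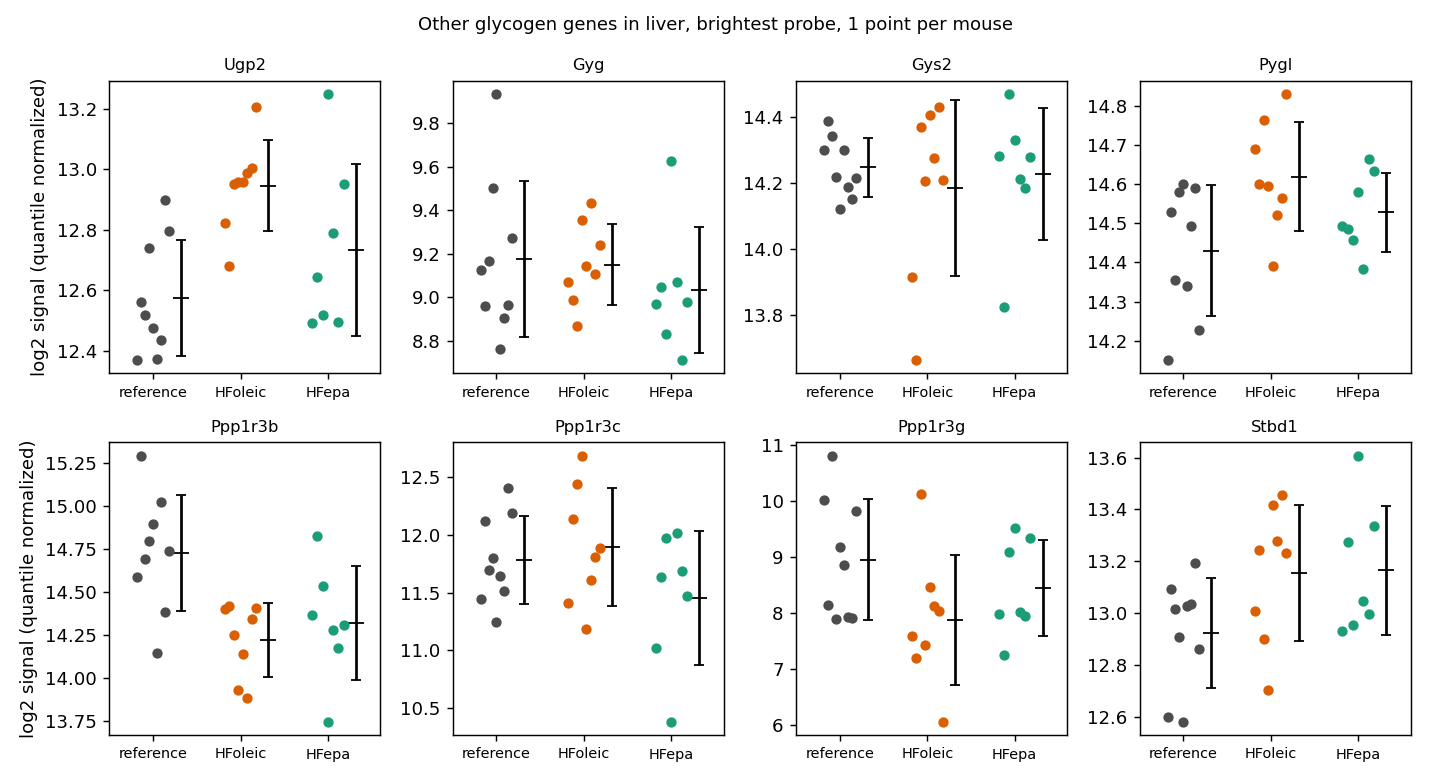
Levels of the other 8 glycogen genes, each at its brightest probe (y axis, log2 quantile-normalized signal, scales differ between panels), in reference, HFoleic and HFepa mice (x axis), with points as mice and the dash and bar as mean and SD. Ugp2 is shifted up and Ppp1r3b down in HFoleic, while Ppp1r3g spreads from 6.06 to 10.81.

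In HFepa against reference, 0.342% of all rows were called (0.159% higher and 0.183% lower). Of the 11 member probes of genes other than Gbe1, limma called 0, and the methods' t-test called 0. An unadjusted limma p under 0.05 was seen for 2 of the 11, and for 4149 of all 32176 rows. The median difference of the 11 probes was -0.021 and their median size 0.16, against 0.0043 and 0.083 over all rows. Both comparisons use the same 9 reference arrays, so their values for the members stand side by side without a test of likeness.

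**Figure D3:**
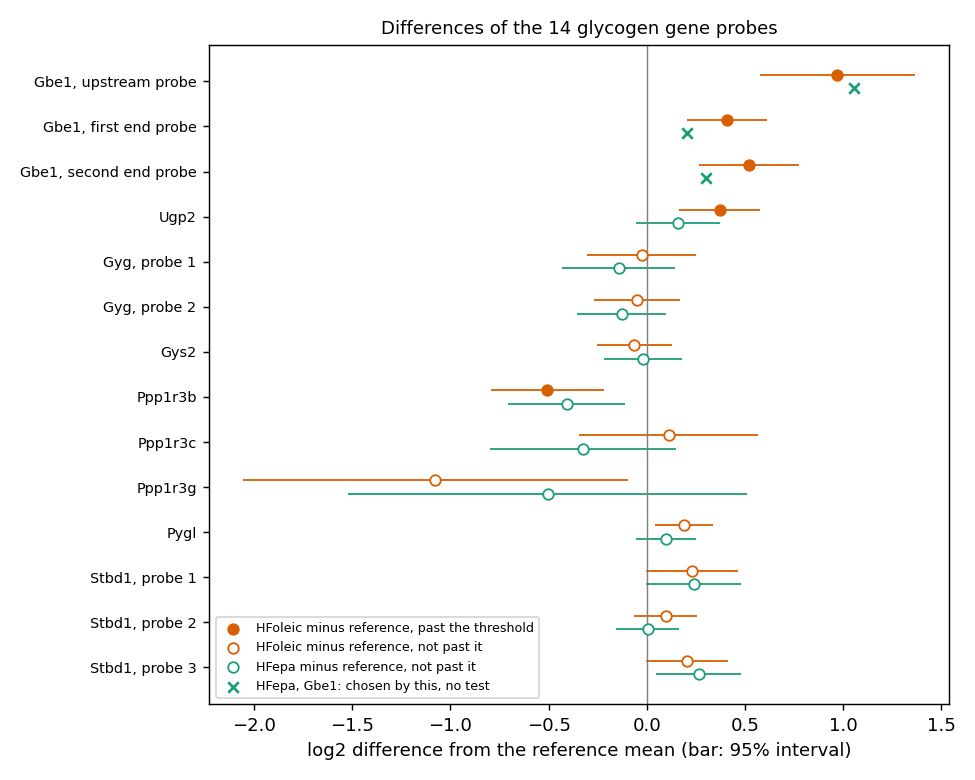
Difference from the reference mean (x axis, log2) for each of the 14 probes (y axis) in HFoleic and HFepa, with bars as 95% intervals, filled points for probes past the threshold, and crosses without bars for Gbe1 in HFepa, which was chosen by that comparison and is not tested there. In HFoleic the 3 Gbe1 probes, Ugp2 and Ppp1r3b are filled, and in HFepa none of the other 11 probes is.

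Between the lineages on the high fat diet, 0 of the 14 member probes and 0% of all rows were called by limma. No member probe had an unadjusted limma p under 0.05, while 2969 of all 32176 rows had. The methods' t-test called 0 of all 32176 rows after adjustment. The intervals still allow differences of some size. HFepa minus HFoleic was -0.22 at the second end probe of Gbe1 (95% interval -0.49 to 0.053), -0.20 at its first end probe (-0.42 to 0.014) and 0.085 at its upstream probe (-0.34 to 0.51). It was -0.21 for Ugp2 (-0.43 to 0.0074) and 0.098 for Ppp1r3b (-0.21 to 0.40). The widest interval was that of Ppp1r3g, from -0.47 to 1.62 around 0.57, followed by that of Ppp1r3c, from -0.92 to 0.049 around -0.44. For Gys2 the interval was -0.16 to 0.25 and for Pygl -0.25 to 0.064. Single mice moved some of these values: the second end probe of Gbe1 was at -0.14 without HFepa replicate 3, Ppp1r3c at -0.26 without HFepa replicate 4, Ppp1r3g at 0.31 without HFoleic replicate 8 and 0.89 without HFoleic replicate 3, and Ppp1r3b at 0.014 without HFepa replicate 2.

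The other genes of glycogen turnover reported here formed a list of 23 genes, of which 21 had 37 rows and Ppp1r3a and Ppp1r3f had none. In HFoleic against reference 0 of the 37 probes were called higher and 2 lower (5.41%, against 6.59% of all rows). Of the 37, 9 had an unadjusted p under 0.05, as had 6430 of all 32176 rows. Gsk3a, a kinase that phosphorylates glycogen synthase, differed by -0.20 at 1 of 2 probes (A_55_P1981405, SE 0.055, adjusted p = 0.0266). Its other probe differed by -0.25 with a larger SE of 0.21 and was not called (adjusted p = 0.568). Ppp1cc, a catalytic subunit of protein phosphatase 1, differed by -0.22 at 1 of 3 probes (A_55_P2077826, SE 0.054, adjusted p = 0.0134), with -0.11 and -0.13 at the others. In HFepa against reference and in HFepa against HFoleic limma called 0 of the 37 probes, against 0.342% and 0% of all rows. At an unadjusted p under 0.05 there were 4 and 5 of the 37, and 4149 and 2969 of all 32176 rows.

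Glycogen synthesis and breakdown meet at glucose 6-phosphate, and 4 further genes that bear on it had 5 rows. In HFoleic against reference 2 of the 5 were called, on an array where 6.59% of all rows were. Gckr rose by 0.27 (SE 0.076, adjusted p = 0.0284), and G6pc, the catalytic subunit of glucose 6-phosphatase, fell by 0.52 (SE 0.12, adjusted p = 0.00944). In HFepa against reference limma called 0 of the 5, against 0.342% of all rows. At an unadjusted p under 0.05 there were 2 of the 5, and 4149 of all 32176 rows. The limma difference was -0.52 for G6pc (adjusted p = 0.0607) and 0.13 for Gckr (adjusted p = 0.532). Between HFepa and HFoleic 0 were called, against 0% of all rows. At an unadjusted p under 0.05 there were 0 of the 5, and 2969 of all 32176 rows. The 95% intervals ran from -0.27 to 0.26 for G6pc and from -0.31 to 0.019 for Gckr.

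The end probes and the upstream probe of Gbe1 also had different neighbours among the 30033 probes with a value on all 24 arrays. Among the 3 genes with the highest Pearson correlation to the second end probe were Stim2 (r = 0.852, rho = 0.870, within groups 0.718), a calcium sensor, and Tmem14a (r = 0.851, rho = 0.841, within groups 0.748). For the first end probe they included Tmem14a (r = 0.886, within groups 0.803) and Srebf1 (r = 0.832, within groups 0.697), a transcription factor of lipid synthesis. The 3 genes closest to the upstream probe were Nup54 (r = 0.909, rho = 0.869, within groups 0.754), a nuclear pore protein, D730045B01Rik (r = 0.867, rho = 0.92, within groups 0.710) and Kansl1l (r = 0.853, rho = 0.878, within groups 0.620). None of these 3 was among the 3 closest to either end probe. The within-group values are those after the group means were subtracted. These correlations are descriptions over 24 arrays that share groups and slides, and genes picked as the highest of many carry no test.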

How the data were processed

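Liver RNA of 24 mice was hybridized by the authors to Agilent mouse arrays, 1 per mouse, and read with Agilent Feature Extraction 10.10.1.1, per the submitters' processing notes. The deposited table held 32176 rows of log2 values, which the methods describe as quantile-normalized log2 median signals. Each column correlated at r of at least 0.9997 with log2 median signal of its array. The filter behind its rows was not given in the sources used here, and 2550 cells were empty. The deposited scanner files held median, mean and processed signal intensity, and marks for spots well above background, used for detection and for alternatives. Groups came from the labels. Replicates are separate mice.

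All 24 arrays entered a group-means model (limma 3.58.1, R 4.3.3, lmFit and eBayes, Benjamini-Hochberg over all rows, two-sided). Tested on simulated data for HFoleic against reference (32176 probes), 188 of 200 probes changed by 1 log2 unit were recovered, with 10 false calls. Smaller changes were not simulated, so this gives no recovery rate for the smaller differences of most members. Members and lists were chosen with earlier results of these data known. The genes named were all members, each gene of the 2 further lists with a called probe, and the 3 genes most like each Gbe1 probe, except that some genes are not reported here and were left out of the list counts. Alternatives were the scanner values filtered and normalized here, processed signal minus its 75th percentile, normexp (offset 50), filters on dim probes, slide, slide row and replicate number as blocks, only the groups compared, the methods' t-test, and each array left out.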

Additional observations from a re-analysis of the deposited data

Results flagged for a closer look

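In 42 groups of values (14 probes in 3 groups), 2 had a highest or lowest mouse far from the others by Dixon's test, and chance flags about 5% of groups. At the Gyg probe A_55_P1992910, HFepa replicate 4 was the highest of 7 at 9.63, with the next mouse at 9.07. At the Stbd1 probe A_52_P645855, reference replicate 5 was the lowest of 9 at 10.58, with the next at 10.86. Neither probe was called in any comparison.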

How the results depend on the processing

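HFoleic against reference gave 5 called member probes, and 4 to 5 when each array was left out. The 3 Gbe1 calls there held in all 10 processing alternatives and all 24 leave-outs, with differences of 0.88 to 1.15 and 0.85 to 1.03 at the upstream probe, and the Ugp2 call held in all 10. Ppp1r3b lost its call with no filter on dim probes (-0.50, adjusted p = 0.0525). In HFepa against reference the 11 probes other than those of Gbe1 gave 0 calls in every setting run. Few rows of the whole array were called there in any setting, from 0 (as without HFepa replicate 2) to 467 of 32176 (without reference replicate 8). The 0 calls are therefore near the share over all rows. The value by which Gbe1 was chosen was past the threshold as reported (1 member probe). Because it chose the gene, its place against the threshold in any setting is a description and gives no support for a difference. The value was not past the threshold (0) with no filter on dim probes, with only the groups compared and by the methods' t-test. Each of these settings called 0 rows over the whole array in HFepa against reference. In the leave-outs this value counted 0 to 1 (0 without HFepa replicate 1, 2, 6 or 7, or reference replicate 1 or 2). The leave-outs that gave 0 called between 0 and 7 rows over the whole array. HFepa against HFoleic gave 0 in every setting run, and at most 12 of all 32176 rows were called there (without HFepa replicate 5).

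The processed signal reversed Gyg in HFoleic against reference (0.018) and Stbd1 between the lineages (-0.012). Leave-outs ran through 0 for Gys2 (-0.098 to 0.012 in HFoleic, -0.061 to 0.046 in HFepa, -0.033 to 0.11 between lineages), Ppp1r3c (-0.0021 to 0.21) and Gyg (-0.078 to 0.068) in HFoleic, and between the lineages for Stbd1 (-0.064 to 0.053) and the upstream Gbe1 probe (-0.019 to 0.20). None of these was called, and the cause was not tested.

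The replicate numbers did not pair the mice: 22 same-numbered pairs had a median correlation of 0.0035, with 3 over 0.1. With the replicate block the called member probes were 5, 1 and 0, and over all rows 1668, 84 and 0 against 2122, 110 and 0. The 1 was the Gbe1 value that chose the gene, a description and no test. The number of arrays limits the precision, and probes report their own transcripts, so levels are not compared between probes.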
